A study of Homo sapiens with 8 samples.

Results

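The cornified envelope genes followed here were PPL, EVPL, IVL, LCE1B, SPRR1A, SPRR1B and TGM1, 7 of the 19775 genes that could be named on the array. All probe sets annotated to them were taken, 8 of 54675, with 2 for SPRR1A and 1 for each of the other 6 genes. The group was chosen from the response to dexrazoxane: PPL and LCE1B had drawn attention by their rise in that comparison, and the other 5 were added by function. The dexrazoxane values of PPL and LCE1B are therefore a description. Where the fits over all genes call them, the call follows from that choice and is not evidence of a response. The rule also asked which probe sets rose above a log2 level of 5 on any array.

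All arrays carried RNA of HTETOP, an engineered human fibrosarcoma line with HT1080 as its parent, whose TOP2A expression (topoisomerase II alpha) is switched off by doxycycline. There were 4 groups, all harvested after 24 h: doxycycline at 1 µg/ml (1 array), its vehicle (1 array), dexrazoxane at 100 µM (3 arrays) and its vehicle (3 arrays). Dexrazoxane is a bisdioxopiperazine that inhibits topoisomerase II, and the vehicles are not named in the labels. Every group consisted of the same engineered line, and each array held RNA combined from 3 passages, numbered 15 to 17 for the doxycycline pair. Nothing in the labels says that the 3 arrays of a group are separate cultures, so the errors below describe the spread between arrays, which may be technical.

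Keratinocytes build the cornified envelope beneath the plasma membrane as they leave the living layers of the epidermis. Periplakin and envoplakin form a scaffold with involucrin, transglutaminases then cross-link small proline-rich, late cornified envelope and other precursor proteins onto it, and lipids are attached to the outer face. Most precursor genes sit side by side on chromosome 1 in the epidermal differentiation complex, between groups of S100 genes. A fibrosarcoma is a mesenchymal tumour rather than an epidermal one.

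AP-1 factors are known regulators of precursor genes in keratinocytes, so the promoters are shown with that motif. A sequence was matched for 3 of the 7 genes in the RefSeq promoter table (GRCh38.p14), namely IVL, SPRR1A and SPRR1B. Each stretch below runs 5′ to 3′ from base -146 to base -21 relative to the annotated start. Capitals mark matches on either strand to TGANTCA, the AP-1 motif, and to TATAAA, the TATA box; the motifs do not overlap here.

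IVL (chr1:152908400-152908525, plus strand): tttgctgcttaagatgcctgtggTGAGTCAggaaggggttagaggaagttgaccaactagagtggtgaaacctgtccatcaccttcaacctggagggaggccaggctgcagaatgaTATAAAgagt
SPRR1A (chr1:152983935-152984060, plus strand): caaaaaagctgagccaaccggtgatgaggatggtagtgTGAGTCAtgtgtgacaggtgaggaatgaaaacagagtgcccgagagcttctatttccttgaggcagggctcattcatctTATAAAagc
SPRR1B (chr1:153031057-153031182, plus strand): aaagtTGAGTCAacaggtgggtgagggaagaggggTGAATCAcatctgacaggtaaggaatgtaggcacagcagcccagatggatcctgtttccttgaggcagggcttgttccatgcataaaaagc

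TGANTCA occurred once in IVL and SPRR1A and at 2 places in SPRR1B, and TATAAA occurred in IVL and SPRR1A. Of 35116 promoter windows of 300 bases in the table, 7.71% held TGANTCA and 11.5% held TATAAA. A match is only a run of letters and was not tested as a binding site. None of these 3 genes was among those with the large differences described next.

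Values were log2 expression levels. The medians of all probe sets were 4.82 and 4.81 in the doxycycline pair and 5.49 to 5.57 on the other 6 arrays, so each treatment was compared with its own vehicle only. Both arrays of the doxycycline pair held an identical value for 9.62% of probe sets. TOP2A, on its brightest probe set 201291_s_at, read 11.98 with the doxycycline vehicle and 6.02 with doxycycline, 62.1-fold lower. In the same pair 201292_at read 9.52 and 5.88, 12.5-fold lower, and the dim 237469_at read 3.32 and 3.38. With the dexrazoxane vehicle 201291_s_at read 12.40 to 12.55, and with dexrazoxane 10.52 to 11.20. The mesenchymal markers were bright, with 13 of 14 measured genes above log2 5 in their mean over the 8 arrays and VIM, the intermediate filament vimentin, at 13.80 ± 0.044 (SD, n = 3) with the dexrazoxane vehicle. The epithelial markers EPCAM and CDH1, which encode adhesion molecules of epithelia, read 3.24 ± 0.17 and 3.84 ± 0.26 (SD, n = 3) there, well under the array median. Of 9 epithelial markers 4 had a mean over the 8 arrays above log2 5 (CLDN4, CLDN7, CDH3 and MUC1). In RNA of whole cultures, a change in the number of cells of a type and a change in RNA per cell cannot be told apart.

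LCE1B and TGM1 exceeded log2 5 on all 8 arrays. PPL and the SPRR1A probe set 214549_x_at did so on the 6 dexrazoxane and vehicle arrays, and EVPL on 5 of these 6. IVL, SPRR1B and the other SPRR1A probe set (213796_at) stayed under it on every array. A level above log2 5 is not by itself a sign of expression. Of the leukocyte and endothelial markers measured, 3 of 6 and 3 of 7 had a mean over the 8 arrays above it. The leukocyte marker CD3E read 7.01 with the dexrazoxane vehicle, above LCE1B at 6.67. PPL and EVPL, at 5.26 and 5.24 there, lay under the medians of those arrays (5.50 to 5.56). On either side of log2 5, the highest EVPL array read 5.50 and the highest SPRR1B array 4.69. A gene was tested when the mean of its brightest probe set over the 8 arrays reached log2 4.83, the 40th percentile of the table. By this rule 5 of the 7 genes were tested, and IVL and SPRR1B were not. The plot of levels on each array shows all 8 probe sets against log2 5.

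**Figure D1:**
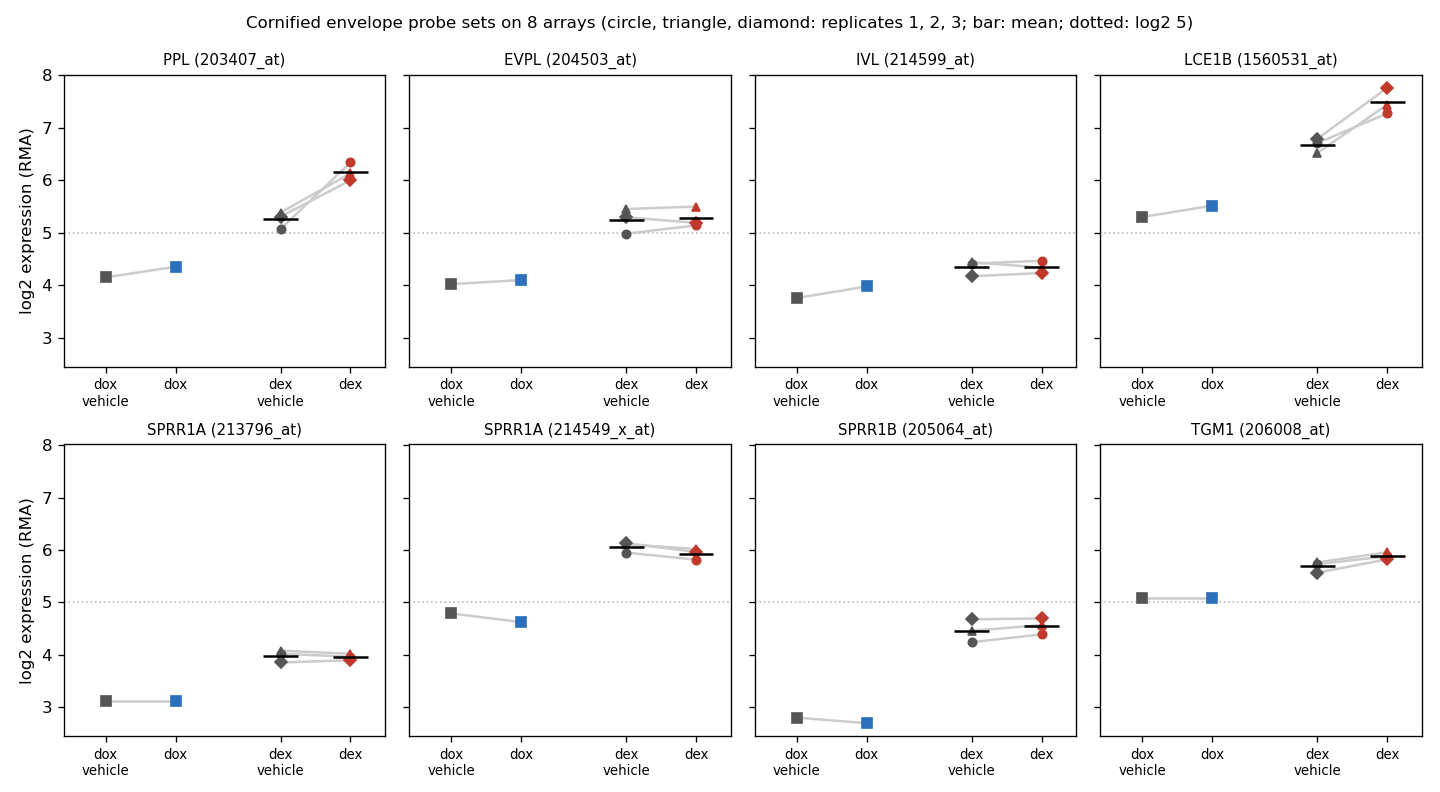
Log2 expression of the 8 probe sets on each array, in 1 panel per probe set, with doxycycline (dox) and dexrazoxane (dex) beside their vehicles. Circles, triangles and diamonds are replicates 1, 2 and 3, squares are the single doxycycline arrays, bars are means of 3 arrays, grey lines join arrays of the same number, and the dotted line is log2 5. PPL and LCE1B step up with dexrazoxane, from means of 5.26 to 6.16 and from 6.67 to 7.49; the other panels stay nearly level.

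Of the plakins, PPL separated the treated from the vehicle arrays and EVPL did not. PPL (203407_at) encodes periplakin, which ties keratin filaments to desmosomes and to the envelope. It read 5.07, 5.39 and 5.31 on the 3 vehicle arrays and 6.34, 6.13 and 6.00 on the 3 dexrazoxane arrays. The lowest treated array lay above the highest vehicle array. The means were 5.26 ± 0.16 and 6.16 ± 0.17 (SD, n = 3), a difference of 0.90 on the log2 scale or 1.87-fold. By replicate number the differences were 1.27, 0.75 and 0.69. Among 14731 genes tested PPL had the 9th highest mean difference.

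EVPL (204503_at) encodes envoplakin, the partner with which periplakin pairs. Its vehicle arrays read 4.98, 5.45 and 5.30 and its dexrazoxane arrays 5.14, 5.50 and 5.19. The groups overlapped throughout. The mean difference was 0.03 ± 0.08 (SE with the replicate number as a block) and the limma adjusted p was 1.00 without the block and 0.856 with it. Its sign turned when single arrays were left out, so that no direction can be given. The partners thus had mean differences of 0.90 and 0.03, and whether these differ was not tested.

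Among the precursors, LCE1B alone had a large difference. LCE1B (1560531_at) encodes a late cornified envelope protein, one of a cluster of small cysteine-rich and glycine-rich proteins incorporated late in cornification. Its vehicle arrays read 6.71, 6.52 and 6.79 and its dexrazoxane arrays 7.28, 7.44 and 7.76. All treated arrays lay above all vehicle arrays. The means were 6.67 ± 0.14 and 7.49 ± 0.25 (SD, n = 3), a difference of 0.82 or 1.77-fold, with 0.57, 0.92 and 0.97 by replicate number. Its mean difference was the 14th highest of the 14731. PPL had its largest difference in pair 1, where LCE1B had its smallest.

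IVL (214599_at) encodes involucrin, an early scaffold of the envelope and a classic marker of suprabasal keratinocytes. It read 4.41, 4.44 and 4.17 with vehicle and 4.47, 4.33 and 4.23 with dexrazoxane. The groups overlapped and their means were nearly equal, at 4.34 and 4.35. In a second fit over all 41097 probe sets with 1 gene symbol and no filter its difference was 0.003 ± 0.08 (SE with the block).

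The small proline-rich proteins SPRR1A and SPRR1B act as cross-bridging precursors. They are close paralogs, and the suffix of 214549_x_at marks a probe set whose probes may bind other transcripts, so their signals are uncertain. SPRR1A read 5.95, 6.11 and 6.13 on this probe set with vehicle and 5.81, 6.02 and 5.96 with dexrazoxane. All 3 pairs had a value below 0, but the groups overlapped, and the difference of -0.13 ± 0.07 (SE with the block) was not called (limma adjusted p = 0.329 with the block). The second SPRR1A probe set read 3.85 to 4.08 with vehicle and 3.90 to 4.02 with dexrazoxane, a mean difference of -0.02. SPRR1B (205064_at) read 4.24, 4.46 and 4.68 with vehicle and 4.39, 4.57 and 4.69 with dexrazoxane. Its difference of 0.09 ± 0.08 (SE with the block) did not pass the fit over all probe sets (limma adjusted p = 0.656 with the block).

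TGM1 (206008_at) encodes the membrane-bound transglutaminase that cross-links the envelope in the epidermis. It read 5.73, 5.76 and 5.57 with vehicle and 5.88, 5.96 and 5.82 with dexrazoxane. The treated arrays lay just above the vehicle arrays. The difference of 0.20 ± 0.07 (SE with the block, 1.15-fold) was not called, with limma adjusted p of 1.00 without the block and 0.154 with it.

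In the planned limma fit without a block 0 of the 5 tested genes were called at an adjusted p under 0.05, as were 0% of all genes tested. At an unadjusted p under 0.05 there were 2 of 5 (PPL and LCE1B), beside 765 of all 14731. With the replicate number as a block, 2 of the 5 were called higher (PPL and LCE1B) and 0 lower, where 2.42% of all genes tested were called higher and 2.44% lower. In the fit over every probe set the block called the same 2 probe sets of the 8, where 0.168% of all were called higher. The 3 treated arrays lay above the 3 vehicle arrays for 3 of the 5 genes (PPL, LCE1B and TGM1), against 6.53% of all genes tested. Since this comparison chose PPL and LCE1B, nothing is read from these counts. The 5 genes had a median difference of 0.20, beside 0.02 over all genes tested, and the same choice raises this median. EVPL, SPRR1A and TGM1, which were added by function, differed by 0.03, -0.13 and 0.20.

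**Figure D2:**
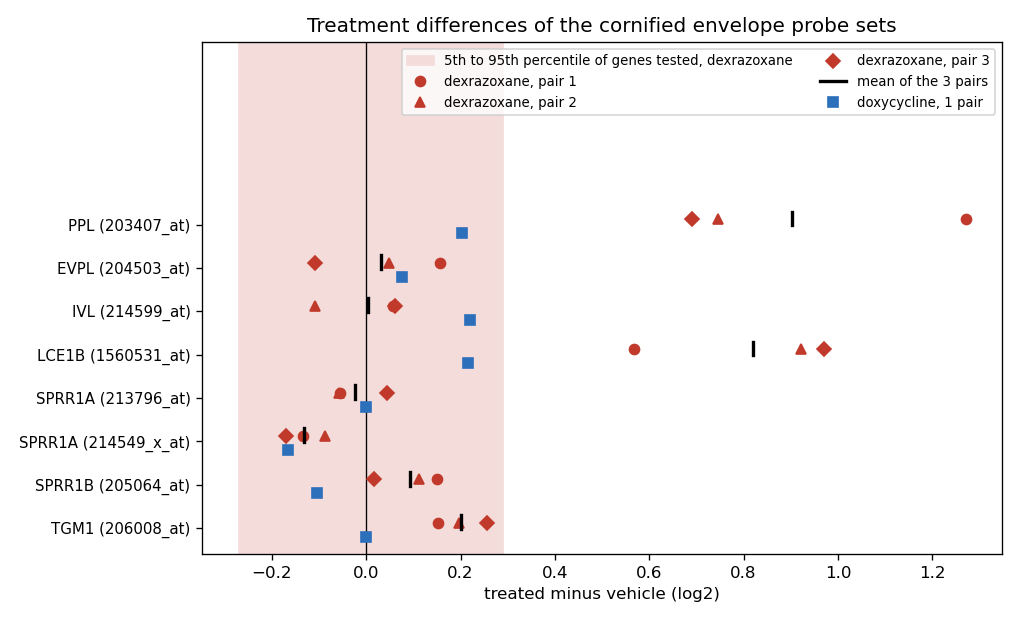
Treated minus vehicle differences (log2) of the 8 probe sets, with circles, triangles and diamonds for dexrazoxane pairs 1, 2 and 3, black bars for their means, blue squares for the single doxycycline pair and shading from the 5th to the 95th percentile of genes tested with dexrazoxane (-0.27 to 0.29). All 3 pairs of PPL and LCE1B lie right of the shading, and all points of the other 6 probe sets lie within it.

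With doxycycline, the same probe sets differed little, and with 1 array a group these differences have no error. PPL read 4.15 with vehicle and 4.35 with doxycycline, a difference of 0.20. LCE1B read 5.30 and 5.52, a difference of 0.22. IVL read 3.76 and 3.98, also a difference of 0.22, and EVPL 4.02 and 4.10, a difference of 0.08. SPRR1A read 4.79 and 4.62 (-0.17) and SPRR1B 2.80 and 2.70 (-0.10). TGM1 had the same value on both arrays, 5.09, as had the second SPRR1A probe set, 3.12. None of the 5 tested genes passed 1.5-fold (0 of 5), where 0.129% of all genes tested did. For scale, the 5th and 95th percentiles of all genes tested in this pair were -0.23 and 0.22. PPL and LCE1B thus had values near the upper of these, and they ranked 913th and 754th of 14731. IVL, which stayed under log2 5 on every array, had a difference of the same size, 0.22. The readings of PPL and IVL lay under the medians of these arrays, 4.82 with vehicle and 4.81 with doxycycline, and those of LCE1B lay above them. Any relation of these differences to the 62.1-fold lower TOP2A in this pair was not tested.

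Further genes of envelope assembly and keratinocyte differentiation were taken from 6 lists compiled from general knowledge, of 117 genes in all. Of these 92 had a probe set of their own and 61 were tested. Without the block limma called 0 of them (8 at an unadjusted p under 0.05, beside 765 of all 14731), and with it 3 were higher and 1 lower, beside 2.42% and 2.44% of all genes tested. Their median difference was 0.07, beside 0.02 over all genes tested. The plot of tested genes by list sets them beside PPL and LCE1B.

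**Figure D3:**
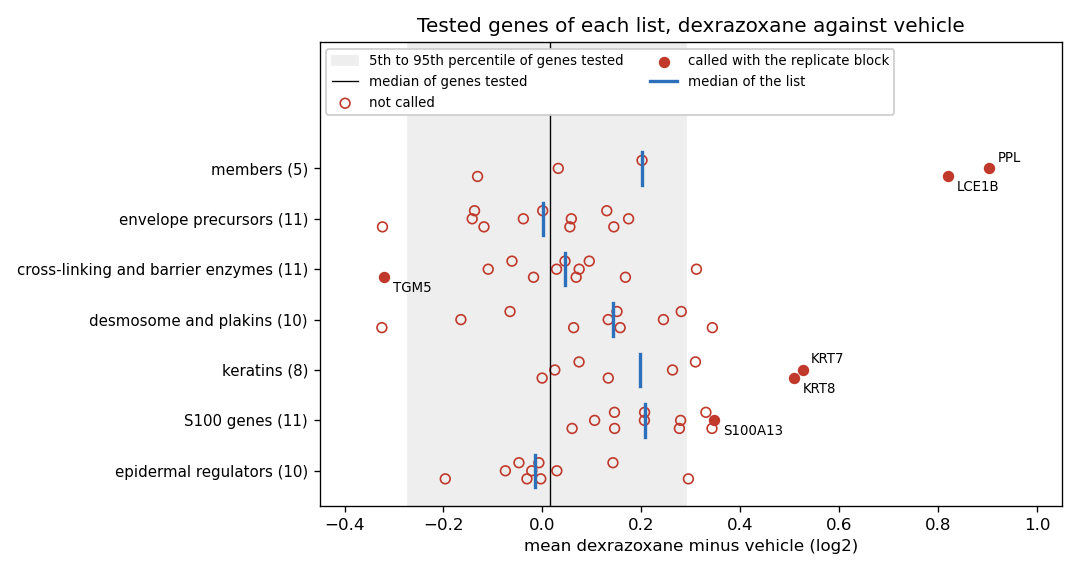
Mean dexrazoxane minus vehicle differences (log2) of the tested genes of each list, with the number tested in brackets. Filled circles were called by limma with the replicate block, open circles were not, blue bars are list medians, the black line is the median of all genes tested and shading spans their 5th to 95th percentiles. PPL and LCE1B, at 0.90 and 0.82, lie right of every other gene shown; KRT7 and KRT8 come next.

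The other envelope precursors, 35 genes with 17 measured and 11 tested, had 0 called higher and 0 called lower with the block. Their median was 0.001, with 6 of 11 above 0. LCE1E, the only other gene of the LCE1 family with a value here, differed by 0.14 on its brighter probe set and by 0.10 on the other, with overlapping groups on both. LORICRIN, the major glycine-rich protein of the mature envelope, read 5.01 ± 0.02 (SD, n = 3) with vehicle and differed by 0.13, with all treated arrays above the vehicle arrays, and was not called (limma adjusted p = 0.343 with the block). FLG, the filament-aggregating protein filaggrin, differed by -0.32 with all treated arrays below the vehicle arrays, as was so for 3.62% of all genes tested, and was not called (limma adjusted p = 0.106 with the block). SPRR4, a small proline-rich precursor, differed by -0.14 from a vehicle level of 7.65 ± 0.19 (SD, n = 3).

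CSTA, the cysteine protease inhibitor cystatin A that is built into the envelope, was the brightest tested gene of that list and varied by replicate number. It read 7.86, 9.60 and 10.07 on vehicle arrays 1 to 3 and 7.90, 9.60 and 10.20 on dexrazoxane arrays 1 to 3. Both arrays numbered 1 lay far below the rest, and within pairs the differences were 0.04, 0.00 and 0.13. In the doxycycline pair it had the value 7.59 on both arrays.

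Among cross-linking and barrier enzymes 11 of 17 measured genes were tested, and TGM5 was called lower while 0 were called higher with the block (2.44% of all genes tested were called lower). TGM5 encodes a transglutaminase of the upper epidermis. It read 6.37, 6.64 and 6.64 with vehicle and 6.11, 6.27 and 6.30 with dexrazoxane, a difference of -0.32 ± 0.07 (SE with the block, limma adjusted p = 0.0487). Leaving out any 1 pair ended that call (adjusted p of 0.0749 to 0.178), as did testing with no filter (0.0771). TGM2, the widely expressed tissue transglutaminase, differed by 0.31 with treated arrays above vehicle arrays and was not called (limma adjusted p = 0.0730 with the block). Among the genes followed and the list genes, TGM1, TGM2 and TGM5 were thus the tested transglutaminases. They differed by 0.20, 0.31 and -0.32.

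Of 15 desmosome and plakin genes 10 were tested and 0 were called higher or lower with the block. Their median difference was 0.14. DSG2, the desmoglein found in simple epithelia, read 10.28 ± 0.20 (SD, n = 3) with vehicle and differed by 0.16, or by 0.10 with the mean of its probe sets. The spectraplakin gene MACF1 read 10.21 ± 0.09 (SD, n = 3) and differed by -0.16, or by -0.11 with the mean of its probe sets. PKP3, a plakophilin of the desmosomal plaque, differed by 0.34 with all treated arrays above the vehicle arrays (limma adjusted p = 0.0870 with the block). The plakin DST went the other way, with a difference of -0.32 and all treated arrays below the vehicle arrays (limma adjusted p = 0.0687 with the block). DSP, the desmoplakin that anchors intermediate filaments at desmosomes, did not reach the filter, with 4.92 ± 0.15 (SD, n = 3) under vehicle.

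Among 8 tested keratin genes 2 were called higher and 0 lower with the block, beside 2.42% of all genes tested called higher. Of the 8, 7 lay above 0, as did 8046 of all 14731, and the median was 0.20. Both called genes are keratins of simple epithelia rather than of cornifying epidermis. KRT7 read 7.60, 6.70 and 6.96 with vehicle and 7.96, 7.47 and 7.40 with dexrazoxane, so the groups overlapped although each pair rose. Its difference was 0.53 ± 0.09 (SE with the block, limma adjusted p = 0.0252). That value rests on 209016_s_at, the brightest of 4 probe sets; the other 3 differed by -0.09, -0.10 and -0.04, and their mean with the first was 0.07 (adjusted p = 0.551). KRT8, the type II partner of KRT18, read 10.19, 9.60 and 9.32 with vehicle and 10.44, 10.35 and 9.85 with dexrazoxane, a difference of 0.51 ± 0.10 (adjusted p = 0.0334). Without pair 1 neither keratin was called (limma adjusted p of 0.0638 and 0.0509). KRT8 rests on 209008_x_at alone, whose suffix carries the uncertainty described for SPRR1A. The keratins KRT1 and KRT10 of the suprabasal epidermis differed by 0.03 and -0.001. KRT2, KRT5, KRT15 and KRT18, also tested and not called, differed by 0.07, 0.13, 0.31 and 0.26. The summed level of the epithelial markers ran from 8.52 to 8.68 (log2) on the vehicle arrays and from 8.62 to 8.78 on the dexrazoxane arrays, and its part in these differences was not tested.

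The S100 genes encode small calcium-binding proteins and flank the precursor genes. Of 11 tested, 1 was called higher (2.42% of all genes tested were) and 0 lower with the block, and 11 of 11 lay above 0, where 8046 of 14731 did over all genes tested. Their median was 0.21 and they ran from 0.06 to 0.35. Treated arrays lay above vehicle arrays for 6 of the 11, beside 6.53% of all genes tested. S100A13, which takes part in the release of growth factors that lack a signal peptide, read 10.10, 9.87 and 10.14 with vehicle and 10.43, 10.30 and 10.43 with dexrazoxane. Its difference was 0.35 ± 0.07 (SE with the block, limma adjusted p = 0.0403). That call was lost without any 1 of the pairs (adjusted p of 0.0679 to 0.136), with no filter (0.0643) and with the mean of its 2 probe sets (0.24, adjusted p = 0.268). S100A7, S100A8 and S100A9, which mark inflamed or cornifying epidermis, were below the filter at 3.76, 3.25 and 3.72 under vehicle.

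Of 10 tested epidermal regulators 0 were called higher or lower with the block, and the median was -0.01. FOSL1, an AP-1 subunit, read 9.49 ± 0.40 (SD, n = 3) with vehicle and differed by -0.20. CEBPB, a C/EBP factor active in suprabasal keratinocytes, read 10.88 ± 0.33 and differed by -0.02. Of the 17 measured regulators 7 did not reach the filter. Among these, GRHL1, GRHL2, GRHL3, KLF4 and ZNF750, factors that drive late epidermal differentiation, had vehicle means of 2.34 to 4.73. Other factors of the list were among the 10 tested, with OVOL1, CEBPA, ELF3, PRDM1, GATA3 and NOTCH1 at vehicle means of 5.75 to 7.34.

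On chromosome 1, LCE1B, IVL, SPRR1A and SPRR1B lie between S100A10 and S100A1 in a stretch of 63 protein-coding genes in RefSeq (assembly GRCh38.p14), a set drawn up after the values were seen. Of these 40 had a probe set of their own and 26 were tested. With the block 3 were called higher (LCE1B, PRR9 and S100A13) and 0 lower, but LCE1B was chosen on this comparison. Without it 2 of 25 were called higher, where 2.42% of all genes tested were. PRR9, a proline-rich gene next to LORICRIN in the order of measured genes, read 6.25 ± 0.13 with vehicle and 6.75 ± 0.15 with dexrazoxane (SD, n = 3), a difference of 0.50 (limma adjusted p = 0.0389 with the block). The median was 0.14 over the 26 and 0.13 over the 25 without LCE1B. The nearest measured neighbours of LCE1B were LCE1E, at 0.14, and SMCP, a sperm mitochondrial protein gene, at -0.09. In the fit over every probe set with the block, PRR9, S100A13, KRT7, KRT8 and TGM5 were not called (limma adjusted p of 0.0746 to 0.135). With doxycycline 0 of the 26 passed 1.5-fold.

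**Figure D4:**
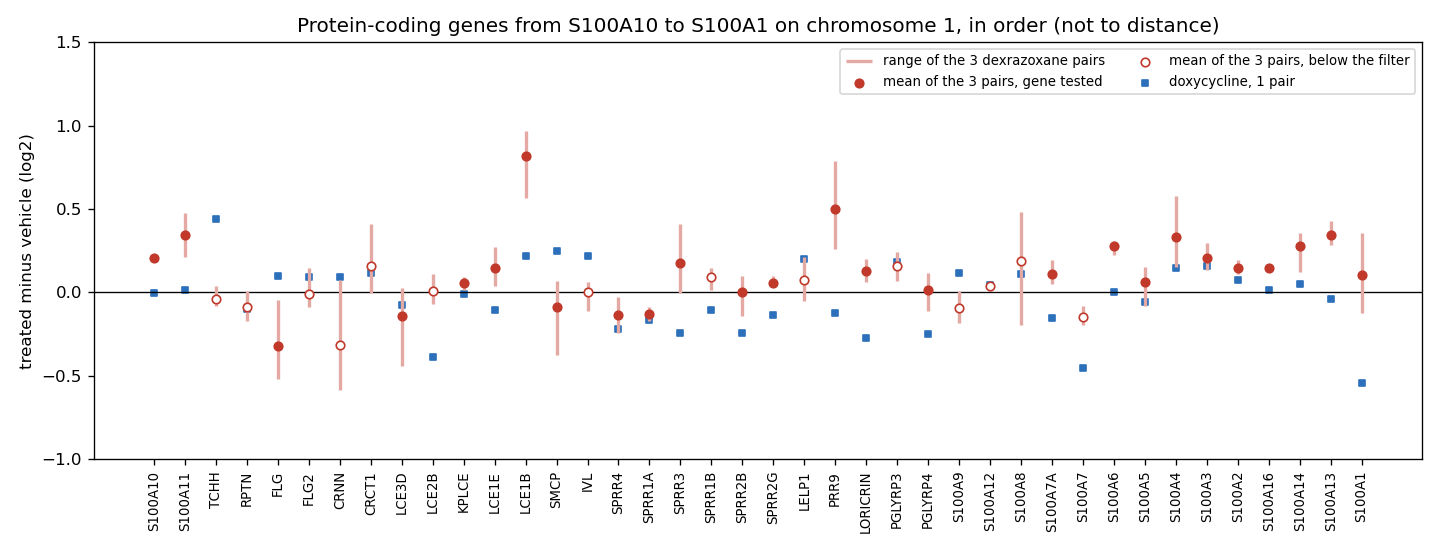
Treated minus vehicle differences (log2) of 40 measured genes from S100A10 to S100A1, placed in chromosomal order and not to distance. Red circles are means of the 3 dexrazoxane pairs, open where the gene was below the filter, vertical lines span the 3 pairs and blue squares are the doxycycline pair. LCE1B stands at 0.82 between LCE1E and SMCP, at 0.14 and -0.09.

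The genes whose 6 dexrazoxane and vehicle arrays most resembled those of a given gene were found by the root mean square distance between log2 values, each gene centred on its own mean, over the other 14730 tested genes. This is a description with no p. Nearest to PPL, whose own root mean square spread was 0.47, were TP53INP1 (0.16), LY6D (0.19) and SERPINI1 (0.19), which differed by 1.04, 0.66 and 1.10 with dexrazoxane. Nearest to LCE1B, with a spread of 0.44, were TRNP1 (0.12), BEX2 (0.12) and DNAJB2 (0.14), with differences of 0.67, 0.79 and 0.93. PPL and LCE1B were thus not among each other's 3 nearest genes. EVPL was nearest to UBXN2A, CPXM2 and HLA-DOA (0.02, 0.02 and 0.03), SPRR1A to KCNIP2-AS1, RBM41 and CCNH (0.01, 0.02 and 0.02) and TGM1 to ETFDH, CXXC4 and MTMR14 (0.03 for each). The own spreads of these 3 genes were 0.18, 0.11 and 0.12, beside 0.47 and 0.44 for PPL and LCE1B. PPL and LCE1B were chosen on these same arrays. Their larger spreads, and the large differences of their nearest genes, follow from that choice, and nothing is read from them.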

How the data were processed

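The authors deposited log2 values. RMA is the tool named, per the submitters' processing notes; its version, and whether all arrays were normalized together, are not given in the sources used here. Names came from GEO's platform annotation: 41097 of 54675 carried 1 symbol, 1801 several and 11777 none. For 41043 of those with 1 symbol the Entrez identifier was found in RefSeq (GRCh38.p14), and the RefSeq symbol was used, whether or not it differed. Each gene was represented by its brightest probe set on average, and 14731 of 19775 genes passed the filter.

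Dexrazoxane was compared with vehicle by limma 3.58.1 in R 4.3.3 (lmFit, eBayes, two-sided, Benjamini-Hochberg adjustment over all genes tested, bound 0.05), planned without a block. The labels share the numbers 1 to 3, and same-numbered arrays deviated together from their group means (correlations 0.823, 0.574 and 0.716). Same-numbered arrays were therefore taken as pairs, on this check and not on the labels' word, and blocked values are printed beside the others. The doxycycline pair has no test. The number of arrays limits the precision.

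The genes and lists were chosen with earlier results of these data known. Genes were named by rule: every member, up to 4 called genes of each list or, where none was called, the 2 brightest, and the 3 nearest genes of each member above log2 5. EPCAM, CDH1, CLDN4, CLDN7, CDH3, MUC1, VIM, CD3E, FLG, LORICRIN, LCE1E, TGM2, PKP3, DST, DSP, KRT1, KRT2, KRT5, KRT10, KRT15, KRT18, OVOL1, CEBPA, ELF3, PRDM1, GATA3, NOTCH1, PRR9, SMCP and the genes named as below the filter were picked after their values were seen. Alternatives varied the block, filter, choice of probe sets, variance model, scaling and arrays used.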

Additional observations from a re-analysis of the deposited data

How the results depend on the processing

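Without the block, dexrazoxane called 0 genes, 0 cornified envelope genes and 0 list genes, 1 gene with specific probe sets and 1 with trended and robust variance. With the replicate block the counts were 717, 2 and 4 (1 probe set without the block and 153 with it, over all probe sets). With the block and no filter they were 425, 2 and 2, and with the 60th percentile filter 1065, 1 and 9. PPL, EVPL, SPRR1A and TGM1 fell below the 60th percentile filter, so LCE1B was the only cornified envelope gene tested there. With the block, the mean of probe sets gave 687, 2 and 4 and specific probe sets 565, 2 and 2. SPRR1A fell below the filter in these settings. Trended and robust variance with the block gave 1844, 2 and 15, and arrays centred on their medians 737, 2 and 4. Leaving out 1 array, or 1 pair with the block, gave 0 to 830 genes, 0 to 2 cornified envelope genes, 0 to 5 list genes and 0 to 269 probe sets; the lowest counts with the block, 98 genes and 0 list genes, came without pair 1. The difference of PPL ran from 0.72 to 1.01 and that of LCE1B from 0.69 to 0.95 over all settings in which each was tested. Without pair 1 they were 0.72 and 0.95. EVPL ran from -0.10 to 0.14 and turned to -0.10 without vehicle array 1, to -0.08 without dexrazoxane array 2 and to -0.03 without pair 1. SPRR1A ran from -0.19 to -0.07, the latter without dexrazoxane array 1, and TGM1 from 0.14 to 0.24. Neither was called. Without the block, quantile normalization again and the other filters changed no count. Quantile normalization again was not run with the block. No tested cornified envelope gene passed 1.5-fold with doxycycline (0) in any of 7 alternatives. The cause of these shifts was not tested, apart from PPL under the stricter filter.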
